A study of Caenorhabditis elegans with 13 samples.

Results

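The genes described here are 53 *C. elegans* genes listed in the deposited table under their sequence name alone, whose mean mRNA-seq level in L1 larvae was at most 0.55 times wild type in both chromatin mutants studied. A gene was taken where its public name was the same as its sequence name, its wild-type mean was at least 5 FPKM, both mutant means were at most 0.55 times wild type, and the mean of the group labelled *dpy-27(RNAi)* was at least 0.75 times wild type. FPKM is the number of fragments scaled to gene length and to the mapped reads of a library. The selection rule left out 2 genes by name. The 53 members came from 46170 genes in the table, of which 17894 had no other name and 4160 of those reached 5 FPKM in wild type. The rule therefore held in 1.27% of these unnamed genes, and the members were chosen by the means of all 4 groups, so the levels below are a description and carry no test.

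The study compared whole L1 larvae in 4 groups and 13 libraries. Wild type was the N2 Bristol strain on vector RNAi (3 libraries), which is also the reference for every ratio below. The second group was N2 on RNAi against *dpy-27* (4 libraries), a gene for a subunit of the condensin complex that carries out dosage compensation. The mutants, also on vector RNAi as labelled, were *cec-4*, strain RB2301 with the allele *ok3124* on chromosome IV (3 libraries), and *met-2 set-25*, also called the double mutant here, strain EKM99 with *met-2(n4256)* and *set-25(n5021)* on chromosome III (3 libraries). Larvae of every group hatched overnight and then spent 3 hours on plates with the OP50 strain of *E. coli*. RNA with a poly(A) tail was sequenced from packed larvae with a kit that does not keep the strand. The values used here are 1 mean per group as the authors computed it, so the levels stand without a spread between replicates, and differences between groups were not set against replicate error. Reads per library could be recovered only for most of the short members, as described below.

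MET-2 and SET-25 are methyltransferases that act in sequence on lysine 9 of histone H3, and CEC-4 is a chromodomain protein of the nuclear envelope that binds this methylated histone and holds silent chromatin at the nuclear periphery. Loss of these proteins is known for the release of heterochromatin from the periphery, and is studied mainly for genes that become more active. A gene with no name other than its sequence name can be a protein-coding gene that has not been studied, or a small non-coding RNA. Small nucleolar RNAs (snoRNAs) guide the chemical modification of other RNAs, and transfer RNAs carry amino acids to the ribosome. Most mature RNAs of these kinds have no poly(A) tail, so few of their molecules are expected in a library made from polyadenylated RNA.

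By annotation (a later Ensembl annotation of the assembly WBcel235), 13 of the 53 members were protein-coding and 40 were not. The non-coding members were 30 genes annotated only as ncRNA, 7 snoRNAs, 2 tRNAs and 1 pseudogene. Protein-coding genes thus made up 24.5% of members, against 72.3% of the 4160 unnamed genes. All 40 non-coding members were single-exon genes between 59 and 221 bases long with a median of 88, whereas the median summed exon length over the unnamed genes was 828 bases. The 13 protein-coding members had 1 to 8 exons and 255 to 1252 bases. Split at 250 bases, the rule held in 40 of 1006 short unnamed genes (3.98%) and in 13 of 3078 longer ones (0.422%). In named genes longer than 250 bases the same limits held in 34 of 6941 genes (0.49%), so the longer unnamed genes were not chosen at a higher share than named genes.

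**Figure D1:**
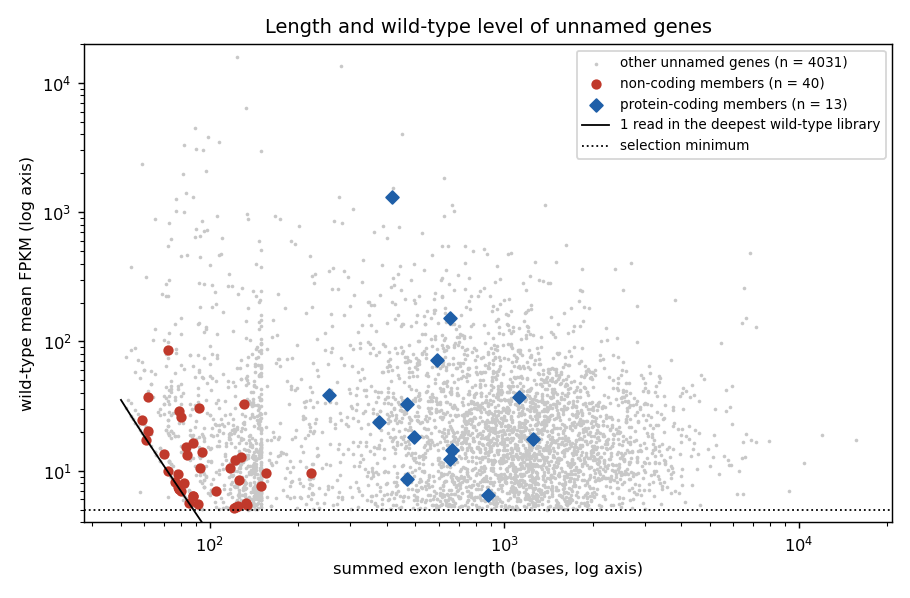
Each point is an unnamed gene with a wild-type mean of at least 5 FPKM, placed by its summed exon length in bases and its wild-type mean FPKM, both on log axes. Red circles are the 40 non-coding members, blue diamonds the 13 protein-coding members, the line is the FPKM that 1 read in the deepest wild-type library gives at each length, and the dotted line is the selection minimum of 5 FPKM. Many of the non-coding members lie on or just above the line for 1 read, and the protein-coding members lie far from it.

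The plot of length against level sets the non-coding members beside the value of a single read. In short genes the deposited means were found to fall on a few fixed steps, which are the values that 1, 2, 3 or more reads give in each library. The steps were read from 447 single-exon genes of 150 bases. At that length 1 read in 1 library raised the wild-type mean by 0.819, 1.02 or 1.03 FPKM, and the *cec-4* mean by 1.09, 1.21 or 1.66 FPKM. The corresponding steps were 1.03, 1.15 and 1.64 FPKM in *met-2 set-25*, and 0.806, 0.891, 0.964 and 1.06 FPKM in the group labelled *dpy-27(RNAi)*. A larger step means a shallower library or fewer libraries to average over. By these steps the summed depth of the *cec-4* libraries was 74.0% of wild type, that of *met-2 set-25* 77.1%, and that of the group labelled *dpy-27(RNAi)* 103%. Of 9350 low values of single-exon genes of 50 to 250 bases, 8853 (94.7%) were whole numbers of reads within a relative tolerance of 1e-05. The scale at each length had been fitted to make the most low values whole, so this share is no independent check.

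For very short genes the step becomes large. A single read in any wild-type library gave at least 5 FPKM at lengths up to 88 bases, and a read in the shallowest wild-type library did so up to 94 bases. Of the 40 non-coding members, 26 were no longer than that. *R13H8.4*, an ncRNA of 59 bases (chromosome I, 10757145 to 10757203), shows this most plainly: its wild-type mean of 24.6 FPKM was 1 read in 1 of 3 libraries. Whole reads repeat the same values, and 18 of the 53 members (33.96%) had exactly the same wild-type mean as another gene, against 143 of the 4160 unnamed genes (3.44%).

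Reads could be recovered in all groups for 37 of the 40 non-coding members. Over these 37 genes the reads numbered 107 in the wild-type libraries, 116 in the group labelled *dpy-27(RNAi)*, with 18 in *cec-4* and 18 in the double mutant. The median member had 2 reads in wild type, 2 in the group labelled *dpy-27(RNAi)*, and 0 in each mutant. In wild type 16 members had 1 read, 5 had 2 and 6 had 3, leaving 10 with 4 or more and a highest value of 11. The wild-type reads came from 1 library in 20 members, from 2 libraries in 11 and from all 3 in 6. Leaving out the deepest, the middle or the shallowest wild-type library left 11, 17 or 12 of the 37 genes that still met the rule, and 10, 4 or 6 had no wild-type read left. Without 1 library of another group, 29 to 35 of the 37 still met it. For the mutant libraries this count is largely set by the choice of members. Of the 37, 21 had 0 reads in both mutants and could not fail when a mutant library was left out. The mutant sums were low because the rule asked for low mutant values, and they are not a measure of an effect.

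**Figure D2:**
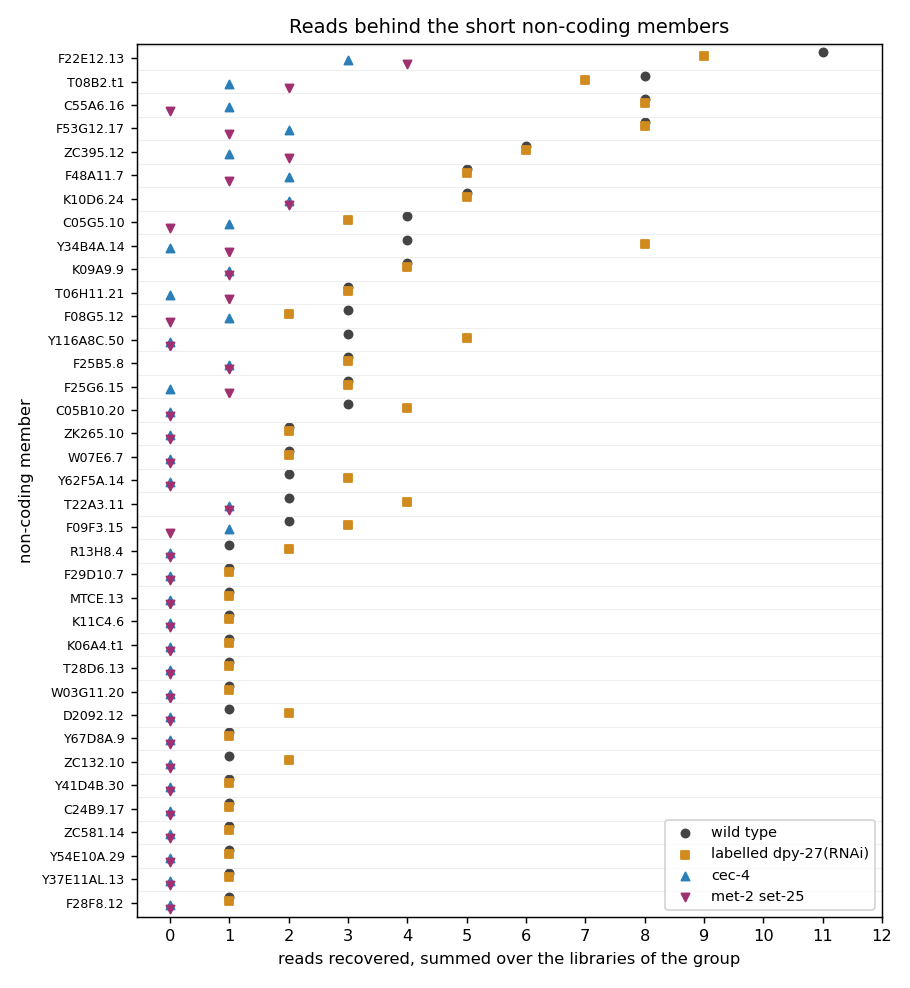
Reads recovered from the deposited means for the 37 non-coding members with whole reads in every group, summed over the libraries of a group (3 in wild type, *cec-4* and *met-2 set-25*, 4 in the group labelled *dpy-27(RNAi)*). Genes are ordered by wild-type reads, from 1 at the bottom to 11 at the top, and the mutants lie at 0 to 3 reads in *cec-4* and 0 to 4 in *met-2 set-25*.

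Both mutants had 0 reads in 21 members. All 16 members with 1 wild-type read are among them, with 3 that had 2 wild-type reads and 2 that had 3. The steps leave no other way for a gene with 1 wild-type read to be chosen, since 1 read in any mutant library is worth more FPKM than 1 read in any wild-type library. In the group labelled *dpy-27(RNAi)*, 13 of these 16 genes had 1 read and 3 had 2. In each of the 21 members, 3 reads, the limit that a count of 0 allows, would have given a higher level in either mutant than was measured in wild type. The level of these genes in the mutants was therefore not detectable at this depth, and no fold difference is given for them. Such limits, and the intervals below, cover counting error only. The intervals stand around ratios that the rule itself chose, so they give the precision of a value and are no evidence of a difference.

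Short genes that were not selected show how often such low values occurred. There were 945 unnamed non-coding single-exon genes of 50 to 250 bases with at least 5 FPKM in wild type. Of those with 1 wild-type read, 68 (57.1%) were at 0 in the group labelled *dpy-27(RNAi)*, with 76 (63.9%) in *cec-4* and 71 (59.7%) in the double mutant, and 16 (13.4%) were members. With more wild-type reads the share of members was smaller: 6.76% at 2 reads, 10.5% at 3, 3.45% at 4 to 6, 2.17% at 7 to 12, and 0.890% among the 337 genes with more reads or with values that were not whole. Over all unnamed genes, the share at most 0.55 times wild type was 8.53% for the group labelled *dpy-27(RNAi)*, with 9.69% for *cec-4* and 14.7% for the double mutant. In unnamed genes of up to 250 bases these shares were 25.9%, 24.7% and 30.8%. Low values in short genes thus also made up a similar share in the group labelled *dpy-27(RNAi)*, which is wild type in genotype.

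**Figure D3:**
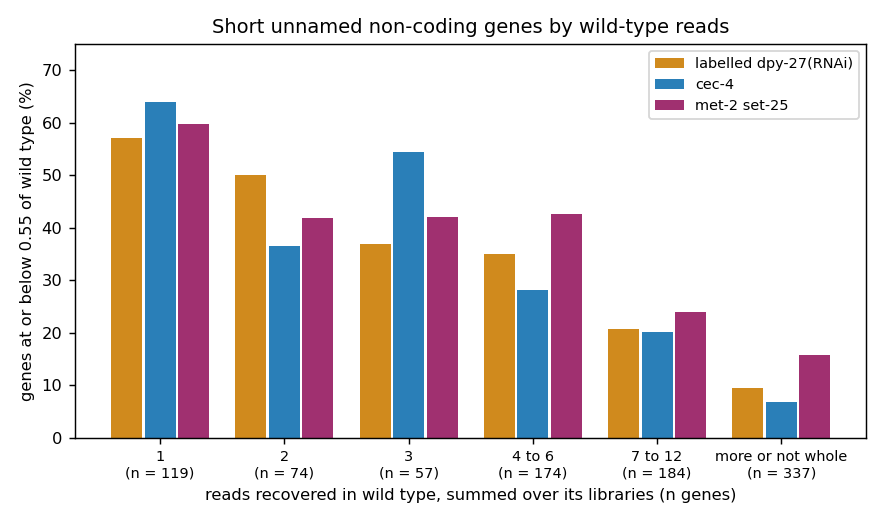
Share of 945 short unnamed non-coding genes at or below 0.55 times wild type in each of the other groups, by the number of reads recovered in wild type, with the number of genes under each set of bars. The share was 57.1% to 63.9% at 1 wild-type read and 6.82% to 15.7% among genes with more than 12 reads or values that were not whole, in all 3 groups.

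The non-coding member with the highest wild-type level was *T08B2.t1*, annotated as a pseudogene, of 72 bases in an intron of *fars-1* (chromosome I, 6212821 to 6212892), which encodes a phenylalanyl-tRNA synthetase subunit. Its means were 86.1 FPKM in wild type, 81.4 in the group labelled *dpy-27(RNAi)*, with 13.1 in *cec-4* and 24.9 in the double mutant. These are 8, 7, 1 and 2 reads, and the 8 wild-type reads came from 2 of 3 libraries. By the exact binomial method for the reads of both groups and their depths, the 95% counting interval of the ratio to wild type ran from 0.00381 to 1.26 in *cec-4* and from 0.0335 to 1.63 in *met-2 set-25*. It overlaps the snoRNA gene *T08B2.13* on the same strand and the ncRNA gene *T08B2.14* on the other, so its reads may belong to either. The highest FPKM among the non-coding members thus came with a wide counting interval.

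The snoRNA *ZK265.10* (62 bases, chromosome I, 8259437 to 8259498) had 37.2 FPKM in wild type, 34.1 in the group labelled *dpy-27(RNAi)* and 0 in both mutants. It had 2 reads in each of the first 2 groups. Another snoRNA, *ZK643.9* (131 bases, chromosome III, 8937767 to 8937897), was better measured. Its means were 32.9 FPKM in wild type, 30.6 in the group labelled *dpy-27(RNAi)*, with 9.22 in *cec-4* and 12.2 in the double mutant, or about 22 and 21 reads in the first 2 groups and 5 and 7 reads in the mutants. The ratio to wild type was 0.280 in *cec-4*, with a counting interval of 0.0909 to 0.832, and 0.372 in *met-2 set-25*, with an interval of 0.149 to 1.0003.

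The snoRNA *Y24D9A.9* was the longest non-coding member, with 221 bases in an intron of *rpl-7A*, a gene for a protein of the large ribosomal subunit (chromosome IV, 4390088 to 4390308). Its means were 9.57 FPKM in wild type, 8.41 in the group labelled *dpy-27(RNAi)*, with 4.13 in *cec-4* and 4.46 in the double mutant, and these rested on about 37 wild-type and 33 *dpy-27(RNAi)* reads, and on 11 reads in *cec-4* and about 13 in the double mutant. The counting interval of its ratio was 0.185 to 0.805 in *cec-4* and 0.222 to 0.877 in *met-2 set-25*. These intervals were among the narrower ones in the non-coding members.

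*C55A6.16*, an ncRNA of 128 bases inside *C55A6.12* on the opposite strand, had 12.7 FPKM in wild type, 13.4 in the group labelled *dpy-27(RNAi)*, with 2.08 in *cec-4* and 0 in the double mutant. Its 8 wild-type reads were spread over all 3 libraries, and it had 8 reads in the group labelled *dpy-27(RNAi)*, with 1 in *cec-4* and 0 in the double mutant. Similar numbers were found for *F53G12.17*, an ncRNA of 150 bases, with 8, 8, 2 and 1 reads in the same order. *F53G12.17* lies in an intron of *rpl-7* and overlaps the snoRNA gene *F53G12.12*, both on the opposite strand. *C55A6.16* also overlaps the ncRNA gene *C55A6.21* on the opposite strand. The reads given to these members may therefore belong to the overlapping genes. The best covered of the recovered members was *F22E12.13* (155 bases), with 11, 9, 3 and 4 reads and means of 9.53, 7.84, 3.95 and 4.01 FPKM. Each of these genes was lower in both mutants than in the other groups, as chosen, with 0 to 4 mutant reads behind the difference.

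The other 4 snoRNA members lie in or across named genes. *Y116A8C.50*, in an intron of the splicing factor gene *uaf-2*, had 13.99 FPKM in wild type, 21.4 in the group labelled *dpy-27(RNAi)* and 0 in both mutants, from 3 and 5 reads in the N2 groups. *K11C4.6*, in an intron of *unc-70*, had 13.5 and 14.1 FPKM and 0 in both mutants, from 1 read in each N2 group. *ZC395.12*, opposite an exon of the tRNA-modifying enzyme gene *gro-1*, had 6, 6, 1 and 2 reads, and *F48A11.7*, in an intron of *ubxn-3*, had 5, 5, 2 and 1, in the order wild type, *dpy-27(RNAi)*, *cec-4* and *met-2 set-25*. Both tRNA members, *MTCE.13* of the mitochondrion and *K06A4.t1* on chromosome V, had 1 read in each N2 group and 0 in both mutants. Nuclear tRNA genes have near-identical copies, so the gene of origin of the reads given to *K06A4.t1* is uncertain. By kind, members made up 5.11% of unnamed snoRNAs and 3.91% of unnamed ncRNAs with at least 5 FPKM in wild type.

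Other ncRNAs with high wild-type FPKM rested on few reads. *C05G5.10* (79 bases, X chromosome) had means of 28.9 FPKM in wild type, 22.8 in the group labelled *dpy-27(RNAi)*, with 9.61 in *cec-4* and 0 in the double mutant, and all 4 of its wild-type reads came from the deepest library. *T06H11.21* (80 bases, X chromosome), in an intron of the potassium channel gene *unc-58* on the opposite strand, had 25.99, 20.4, 0 and 8.73 FPKM in the same order, from 3, 3, 0 and 1 reads. *B0511.18* (92 bases, chromosome I) had 30.5 FPKM in wild type and 36.1 in the group labelled *dpy-27(RNAi)*, with 1.47e-31 in *cec-4* and 0.0428 in the double mutant. It lies in an exon of *B0511.12* on the same strand, and its values were not whole reads, so its level is uncertain, since reads of the overlap could be given to either gene. *B0511.12* itself had 19.8 FPKM in wild type, 23.7 in *cec-4* and 22.5 in the double mutant.

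*Y62F5A.14* (84 bases, chromosome II) overlaps the genes of the microRNAs mir-36 and mir-37, of a family needed in the embryo. Its 13.3 FPKM in wild type and 22.8 in the group labelled *dpy-27(RNAi)* were 2 and 3 reads, and both mutants had 0.

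The 3 members with the highest ratio of the group labelled *dpy-27(RNAi)* to wild type were ncRNAs. *ZC132.10* had 7.21 FPKM in wild type and 17.8 in that group, a ratio of 2.47 that stands for 1 and 2 reads. *D2092.12* had 7.53 and 15.6 FPKM, also 1 and 2 reads. *Y34B4A.14* on the X chromosome had 5.59 and 11.1 FPKM, which are 4 and 8 reads. In all 40 non-coding members the median ratio of this group to wild type was 1.03, and 22 of 40 were above wild type, beside 50.2% of the unnamed genes. The rule left out genes below 0.75 in this group, so nothing is read from that count.

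Most non-coding members overlap larger genes, and the libraries do not keep the strand, so reads of a member and of RNA from the other strand or from an unspliced host cannot be told apart. Of the 40, 34 overlap another gene, 29 a protein-coding gene. In 26 of the 29 the member lies in an intron and in 3 it meets an exon, with 17 members opposite to the host and 12 on the same strand. The host genes were compared as a measurement the rule did not use. Of the 29 hosts, 24 had at least 5 FPKM in wild type, and their median ratio to wild type was 0.983 in the group labelled *dpy-27(RNAi)*, with 0.943 in *cec-4* and 0.882 in the double mutant. At or below 0.55 times wild type were 1 of the 24 hosts in *cec-4*, where 6.58% of all 11164 genes with at least 5 FPKM were so low, and 3 in *met-2 set-25*, against 10% of all genes. The group labelled *dpy-27(RNAi)* had 1 such host, against 4.73%. Most of the 24 hosts were thus above 0.55 times wild type in each mutant, as were most of all genes. Many of the members inside them rest on few wild-type reads, so whether members and hosts differ was not tested.

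Single hosts varied, and *daf-16* had the highest ratio of the 24 in both mutants. *daf-16*, the FOXO transcription factor of insulin signalling, holds *R13H8.4* in an intron on the opposite strand and had 139 FPKM in wild type, 208 in *cec-4* and 251 in the double mutant. *unc-70*, the β-spectrin gene, holds the snoRNA *K11C4.6* and had 113 FPKM in wild type, 159 in *cec-4* and 153 in the double mutant. *rpl-7A*, host of *Y24D9A.9*, had 2244 FPKM in wild type, 2024 in *cec-4* and 1872 in the double mutant. *daf-16* and *unc-70* were thus higher than wild type in both mutants, and *rpl-7A* was at 0.902 and 0.834 times wild type. The members inside *daf-16* and *unc-70* had 1 wild-type read each, so no low level of theirs can be set against the host. Other hosts were lower in *cec-4* and the double mutant: *chw-1*, around *F22E12.13*, at 0.602 and 0.488, and *fars-1*, around *T08B2.t1*, at 0.638 and 0.681. Among hosts below 5 FPKM, *swt-5* and *nhr-175* were low in both mutants, and *Y41D4B.24*, *Y37E11AL.1* and *acr-18* were above wild type in both. Of the 24 hosts with at least 5 FPKM, the 1 at or below 0.55 in both mutants was *ugt-65*, a UDP-glucuronosyltransferase gene around *F08G5.12*, with 8.30 FPKM in wild type, 4.67 in the group labelled *dpy-27(RNAi)*, with 3.38 in *cec-4* and 3.26 in the double mutant.

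The 13 protein-coding members were measured on far more reads, from about 212 in wild type for *K06A9.3* to about 25928 for *R09B3.3*. Their ratios to wild type ran from 0.422 to 0.549 in *cec-4*, with a median of 0.520, and from 0.305 to 0.544 in *met-2 set-25*, with a median of 0.458. In the 3007 unnamed protein-coding genes, where the rule held in 0.432%, the median ratio was 0.992 in *cec-4* and 0.928 in the double mutant. The values of these 13 genes do not rest on single reads, though their spread between libraries was not analysed here.

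**Figure D4:**
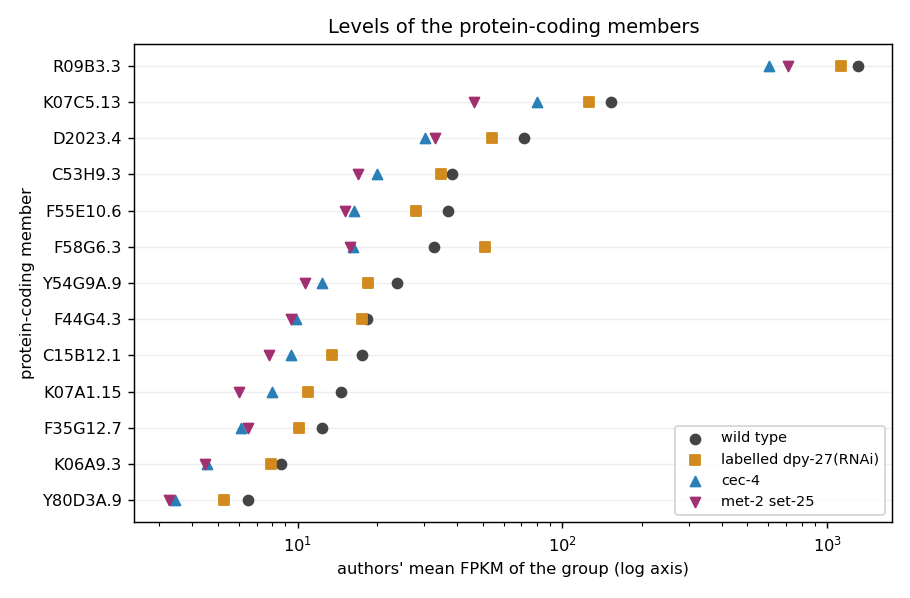
The authors' mean FPKM of the 13 protein-coding members in each group, on a log axis, with 1 symbol per group and no error bars because only group means were used. In every gene both mutants lie to the left of wild type, as chosen, and in all but *F58G6.3* the group labelled *dpy-27(RNAi)* lies between the mutants and wild type.

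*R09B3.3*, named *rbm-3.2* in the later annotation and a member of the RNA-binding motif class (chromosome I, 11910328 to 11911021, 3 exons), had the highest level of all members. Its means were 1307 FPKM in wild type, 1127 in the group labelled *dpy-27(RNAi)*, with 605 in *cec-4* and 711 in the double mutant. The ratio to wild type was 0.463 in *cec-4* (counting interval 0.452 to 0.474) and 0.544 in *met-2 set-25* (0.532 to 0.556). It is 1 of 3 protein-coding members that were lower in *cec-4* than in *met-2 set-25*.

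*K07C5.13* (chromosome V, 10342055 to 10342938, 3 exons) showed the largest gap between the mutants among the protein-coding members. It had 152 FPKM in wild type, 126 in the group labelled *dpy-27(RNAi)*, with 79.9 in *cec-4* and 46.5 in the double mutant. The level in *met-2 set-25* was 0.582 times that in *cec-4*. The intervals of the ratios to wild type, 0.501 to 0.5496 in *cec-4* and 0.288 to 0.323 in *met-2 set-25*, did not meet, which leaves out any spread between libraries.

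*D2023.4* (chromosome V, 11825033 to 11825762) had 71.8 FPKM in wild type, 54.4 in the group labelled *dpy-27(RNAi)*, with 30.3 in *cec-4* and 32.9 in the double mutant. *C53H9.3*, the only single-exon member that encodes a protein (255 bases, chromosome I), had 38.4, 34.9, 19.9 and 16.9 FPKM in the same order. *F55E10.6* (X chromosome, 7 exons), now named *drd-5* in a class of genes lowered by dietary restriction, had 37.1, 28.0, 16.3 and 15.2 FPKM. In these 3 genes the mutant levels were closer to each other than to either N2 group, an order that the limits of the rule favour.

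*F58G6.3* (chromosome IV, 9653535 to 9654223) differed from the other protein-coding members under *dpy-27(RNAi)*. In the group with that label it had 51.0 FPKM, above the wild-type 32.6 FPKM, and it had 16.3 in *cec-4* and 15.8 in the double mutant. The ratio of 1.56 had a counting interval of 1.43 to 1.71. The other 12 protein-coding members had ratios below equality in that group, with a median over all 13 of 0.818 and a lowest value of 0.753 for *K07A1.15*, just above the limit of 0.75 that the rule set. Over all unnamed protein-coding genes the median was 1.01. The rule used this ratio, and the mutant ratios it limited share the same wild-type mean, so nothing is read from this difference.

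The remaining protein-coding members had wild-type means between 6.49 and 23.8 FPKM. They were *Y54G9A.9*, *F44G4.3*, *C15B12.1*, *K07A1.15*, *F35G12.7*, *K06A9.3* and *Y80D3A.9*, the last now named *hrg-10* in the heme-responsive gene class. *Y54G9A.9* had the highest of these wild-type levels, 23.8 FPKM, with 18.4 in the group labelled *dpy-27(RNAi)*, with 12.4 in *cec-4* and 10.6 in the double mutant. *Y80D3A.9* had the lowest, 6.49 FPKM, with 5.28, 3.45 and 3.26 in the same order. The span of *K07A1.15*, introns included, meets exons of *aqp-9* and *ile-1*. That of *F35G12.7* meets exon sequence of *F35G12.5* on the opposite strand, and *K06A9.3* lies opposite the antisense RNA gene *anr-49*. Whether the exons themselves overlap was not computed. The levels of these 3 genes are uncertain, since unstranded reads of a shared exon would fit either gene.

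**Figure D5:**
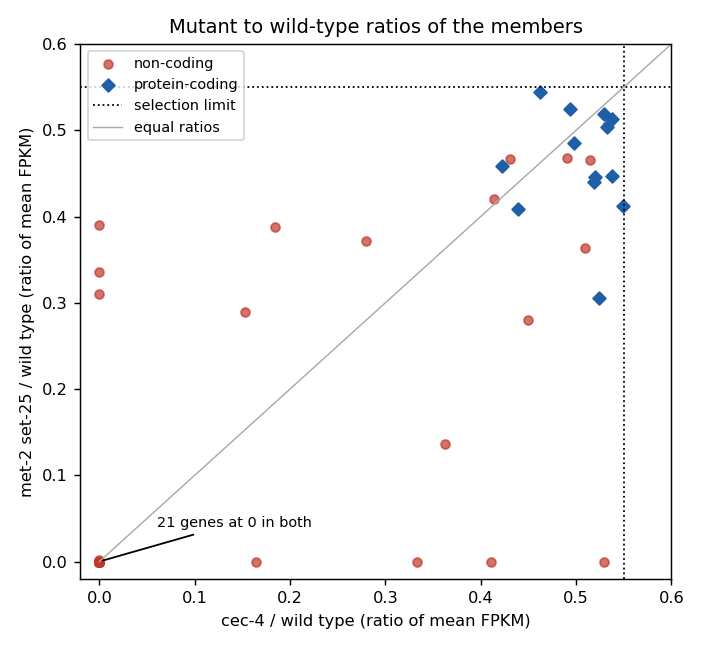
Ratio of mean FPKM to wild type in *cec-4* (horizontal) and in *met-2 set-25* (vertical) for the 53 members, with the selection limits as dotted lines and equal ratios as the grey line. The 13 protein-coding members lie between 0.422 and 0.549 in *cec-4* and between 0.305 and 0.544 in *met-2 set-25*, and 21 non-coding members lie together at 0 in both mutants.

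The plot of the mutant ratios sets the 21 members at 0 apart from the protein-coding members. The other non-coding members are not all apart. *T22A3.11*, with 0.533 for *cec-4* and 0.505 for the double mutant, and *Y24D9A.9*, with 0.431 and 0.466, lie within the protein-coding ranges. Over all 53 members the median ratio was 0.164 in *cec-4* and 0.136 in the double mutant, values that fall between the protein-coding members and the members at 0. The lowest ratios could not be ranked, because 24 members had no read in *cec-4* with *B0511.18* close to 0, and 25 had none in *met-2 set-25*. Among protein-coding members 10 of 13 were lower in *met-2 set-25* than in *cec-4*, and 3 were higher. The median ratio of *met-2 set-25* to *cec-4* over all unnamed protein-coding genes was 0.925, in the same direction. Most of those genes were thus lower too, and the rule used both mutant values, so nothing is read from the count. Among non-coding members 10 were lower in *met-2 set-25*, 9 were higher and 21 were at 0 in both. The highest of a member's mutant ratios was 0.549 for *K07A1.15*, 0.544 for *R09B3.3* and 0.538 for *F44G4.3*. Just outside the limit were *Y50D7A.10* with 0.554, *EGAP4.1* with 0.556 and *R08B4.7*, an ncRNA, with 0.558. The limit falls within a continuous series of values and marks no gap.

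The members were spread over the genome. Chromosomes I and V held 13 members each, IV and X 8 each, II and III 5 each, and the mitochondrial genome 1, the tRNA gene *MTCE.13*. Chromosome I held 24.5% of members against 14.98% of the 4160 unnamed genes, and X held 15.1% against 17.7%. Of the 13 protein-coding members 3 lay on I, 3 on V, 3 on X, 2 on II, and 1 each on III and IV. No member lay within 20 kb of another. The nearest pair was *D2092.12* and *ZC581.14* on chromosome I, 43681 bases apart, each with 1 wild-type read.

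The genes that define the groups and 3 lists of other genes give the setting of these values. *cec-4* mRNA had 18.2 FPKM in wild type and 7.02 in *cec-4*, and *set-25* 8.93 and 4.15 FPKM in wild type and *met-2 set-25*, while *met-2* had 17.65 and 13.7 FPKM. *dpy-27* mRNA was at 32.3 FPKM in wild type and 31.6 in the group labelled *dpy-27(RNAi)*, so the mRNA level gives no check of that label, and protein was not analysed here. The paper reports a western blot in which the DPY-27 protein was reduced in larvae on this RNAi. Of 15 measured genes for H3K9 methylation and anchoring at the lamina, and of 11 intestinal genes, 0 were at most 0.55 in both mutants. Of 7 measured genes of the response to starvation and feeding there was 1, *acdh-1*, an acyl-CoA dehydrogenase gene, at 26.3 FPKM in wild type, 0.153 in the group labelled *dpy-27(RNAi)*, with 0.252 in *cec-4* and 0.333 in the double mutant. Among all 11164 genes with at least 5 FPKM, 6.58% were this low for *cec-4* and 10% for the double mutant. The share low in both mutants together was not computed, and the lists are small, so nothing is read from these counts. Summed marker levels differed between the groups: body muscle 1620, 1928, 2459 and 2408 FPKM, intestine 2697, 2121, 1910 and 1733, pharynx 481, 783, 692 and 852, and germ line 42.1, 45.4, 31.9 and 204, in the order wild type, *dpy-27(RNAi)*, *cec-4* and *met-2 set-25*. The intestine sum rested mainly on *act-5* and *ifb-2*, and the 11 genes of the longer intestinal list summed to 9533, 7963, 9548 and 7727 FPKM. The germ line sum rose through *glh-1*, at 25.5 FPKM in wild type and 168 in *met-2 set-25*, and *pgl-1*, at 3.45 FPKM in wild type and 7.26 times that in *met-2 set-25*, while *mes-2* was at 12.5 and 9.77 FPKM and *nos-2* at 0.645 and 0.624 FPKM. The part of these shifts in the members' values was not tested, and in whole larvae fewer cells of a type and less RNA per cell cannot be told apart.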

How the data were processed

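Per the submitters' processing notes and the study's methods, the authors trimmed reads with Trim Galore, aligned them with TopHat2 2.0.13 to WS235, computed FPKM with Cufflinks 2.2.1, and deposited the mean FPKM of each group. A second deposited table, made with HTSeq 0.6.0, DESeq2 1.6.3 and R 3.2.3, holds the authors' log2 fold changes and adjusted p-values and was not used. No test was made, since the values used are 1 mean per group and the authors' own comparisons were left aside. The members and lists were chosen with earlier results of these data known.

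Genes were placed with Ensembl release 115, in which 45871 of the 46170 gene IDs and all 53 members were found. Whole reads were recovered, for single-exon genes of 50 to 250 bases and up to 12 reads, from the steps of the FPKM values within a relative tolerance of 1e-05, an alternative chosen after seeing the data. The change of the steps with length started from a normal fragment-length model with a mean of 200 and an SD of 80 bases. At each length the scale was then fitted, close to that model, to make the most low values whole. Which library is which replicate cannot be told from the steps. For longer genes, and values that were not whole, reads are approximate: the mean divided by the average value of 1 read. Ratio intervals are exact binomial (95%) on summed reads. Python 3.11.15, numpy 2.4.6, pandas 2.3.3, scipy 1.17.1 and matplotlib 3.10.9 were used.

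Named genes were the 12 members with the highest wild-type mean, the 5 lowest ratios in each mutant (tied at 0), the 3 highest *dpy-27(RNAi)* ratios, members within 20 kb of each other, the 3 genes nearest each side of the limit, and the targeted genes. Other members and hosts were named after their values were seen. Lists were H3K9 methylation and lamina anchoring, intestinal genes, starvation and feeding response, and markers of hypodermis, body muscle, pharynx, neurons, intestine, germ line, yolk and sperm. Summed levels in wild type, *dpy-27(RNAi)*, *cec-4* and *met-2 set-25* were 210, 177, 207 and 232 FPKM for hypodermis and 385, 444, 473 and 446 for neurons, and stayed under 1 FPKM for yolk and sperm. Planned comparisons of proteins and promoters were not made, and no sequence was analysed here.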

Additional observations from a re-analysis of the deposited data

How the results depend on the processing

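The number of members depended mainly on the limits. It was 53 as reported, 132 with a wild-type minimum of 1 FPKM, 29 with 10, 299 with no minimum, 88 with mutant ratios up to 0.6, 265 with no limit on *dpy-27(RNAi)*, and 13 among genes with a summed exon length over 250 bases, a setting chosen after seeing the data. It was 39 with ratios up to 0.5, 37 with *dpy-27(RNAi)* at 0.9 or more, 54 after dividing by the median ratio over all genes, and 44 with a pseudocount of 1. The members' median *cec-4* ratio of 0.164 became 0.162 after division by the median ratio, 0.225 with the pseudocount, 0.520 in protein-coding members, 0.524 at 500 bases or more, and 0.333 at 10 FPKM or more. The median *met-2 set-25* ratio of 0.136 became 0.140, 0.237, 0.458, 0.446 and 0.336 under the same settings. For *dpy-27(RNAi)* the median of 0.953 became 0.955 with the pseudocount, 0.818, 0.772 and 0.929 under the last 3. The X chromosome held 8 members, 37 at a minimum of 1 FPKM, 4 at 10, and 3 counting protein-coding members only. With a minimum of 1 FPKM, 25 members were protein-coding instead of 13, a count added after seeing the data. Members lower in *met-2 set-25* than in *cec-4* numbered 20, and 18 after division by the median ratios.

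No paired analysis was possible because the values used are group means, and recovered reads carry no replicate number. Leaving out 1 library at a time, added after seeing the data, was possible for the 37 members with recovered reads: 11 to 35 still met the rule, with 11, 17 and 12 for the wild-type libraries. The counts for the mutant libraries are largely set by the choice of members, since 21 of the 37 had 0 reads in both mutants. Depth limits the short members: 27 of 40 had 1 to 3 reads in wild type, and at that depth a value of 0 in a mutant cannot be told from an unchanged level. For the 13 protein-coding members the spread between libraries was not analysed here.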

Other observations

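Among named genes, 38 of 7004 with a wild-type mean of at least 5 FPKM met the limits used here on all groups (0.543%), and 4 of the 46 that were at most 250 bases long did so (8.7%).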
